A study of Mus musculus with 2 samples.

Results

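The 34 genes described here were the glycolytic enzymes, glucose and lactate transporters, flux-setting kinases, oxygen sensors and hypoxia-induced genes of a fixed list of symbols, out of 32285 gene IDs in the tables. They were measured by single-cell RNA-seq in eYFP+ cells sorted from perigonadal fat (gWAT), out of its stromovascular fraction, the cells other than mature adipocytes. The cells came from male Cyp1a1Cre x R26LSL-eYFP mice kept for 12 weeks on a purified diet with 10% of energy as fat (LFD) or with 60% (HFD). Both diets were combined with FICZ, a ligand of the aryl hydrocarbon receptor (AHR), given at 10 mg/kg 5 days ahead of tissue collection, so no group lacked the ligand. In these mice Cre is driven by the promoter of Cyp1a1, a target gene of AHR, so eYFP marks cells in which Cyp1a1 was active at collection or earlier, and eYFP- cells were not measured. Each diet had 1 library made from pooled mice, with no map from cells to mice.

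Glycolysis splits glucose to pyruvate in the cytosol. Lactate dehydrogenase turns pyruvate to lactate, whereas pyruvate dehydrogenase, which PDK kinases inhibit, passes it to the mitochondria. When oxygen is short, prolyl hydroxylases (EGLN) no longer mark HIF1A for degradation, and HIF1A joins its partner ARNT to raise the transcription of glycolytic and other genes. ARNT is also the partner that AHR needs to bind DNA, and adipose tissue of obese animals is known to be hypoxic in places. HIF1A is controlled mainly as a protein, which these mRNA data do not show.

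Unique molecular identifiers (UMIs) each stand for 1 captured mRNA molecule, and 114311020 of them over 11281 barcodes made up the LFD library, against 119498750 over 9631 barcodes for HFD. On filtering, 10216 LFD and 8537 HFD cells were kept, with a median of 10636 and 13231 UMIs. The libraries shared 27 barcodes. Cells were typed by how many markers of a class they expressed, and 81.0% of LFD and 87.8% of HFD cells fell into 14 types. These were endothelial-like cells, keratin-high, keratin-low and cycling Wt1-positive cells (Wt1 marks the mesothelial lineage), fibroblastic adipocyte progenitor cell (APC)-like cells, B-like and plasma cell-like cells with their cycling counterparts, and macrophage-like, dendritic cell-like, T-like, group 2 innate lymphoid cell (ILC2)-like and neutrophil-like cells. The name Wt1-positive stands for at least 3 of 10 Wt1-lineage markers, and Wt1 itself was not required. Of the keratin-low cells, 1155 of 2981 in LFD and 189 of 1260 in HFD had just 3 of these markers. Cells with markers of several classes (547 LFD and 640 HFD) or of none (1388 and 391) stayed out. The line between keratin-high and keratin-low cells is a range and not a type, and 869 LFD and 802 HFD cells of both groups had 2 or 3 of the 7 keratin-group genes, at the line or just below it.

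Levels were the summed counts of a type scaled to 1000000 UMIs (CPM) with 95% Poisson intervals. Ratios of HFD to LFD had exact conditional binomial intervals, and were made in 11 types, those of 100 or more cells per library, for genes with at least 20 UMIs over both. A ratio was called past the fold when it was at least 1.5-fold in either direction with an interval that left out 1. It lost the call under another choice where either part of this rule failed. The intervals cover counting error only, and differences between mice, sorts and libraries cannot be told apart from diet. Levels are compared within a gene and not between genes, since CPM is not per length. All 34 genes were detected in both libraries, and together they took 0.435% of LFD and 0.365% of HFD UMIs. Aldoa was listed under 2 gene IDs, and the ID with 37812 LFD and 31992 HFD UMIs was used, the other holding 2 and 3.

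The DNA sequences in front of these genes are shown first, because HIF1A with ARNT binds the letters ACGTG or GCGTG and AHR with ARNT binds GCGTG. Promoter windows of 300 bases, 250 before to 50 after the start, were taken from RefSeq (GRCm38.p6), where 32 of the 34 genes matched with 45 windows. Ndrg1 and Slc2a3 had none. Windows of 7 genes follow, written 5′ to 3′ on the strand of the gene, with every ACGTG on either strand in capitals. Ldha is shown because it held the most matches. Bnip3, Pgk1, Slc16a3 and Ldhb stand for genes with lower values in HFD and Adm and Pfkfb3 for genes with higher values, and in both sets windows with and without ACGTG were picked.
Ldha, chr7:46845554-46845853, strand +: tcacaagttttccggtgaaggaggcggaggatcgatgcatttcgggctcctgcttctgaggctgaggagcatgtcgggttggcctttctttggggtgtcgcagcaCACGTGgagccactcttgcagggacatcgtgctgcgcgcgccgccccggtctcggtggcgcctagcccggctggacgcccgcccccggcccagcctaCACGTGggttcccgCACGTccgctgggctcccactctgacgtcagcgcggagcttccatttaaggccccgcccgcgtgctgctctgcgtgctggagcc
Bnip3, chr7:138909457-138909756, strand -: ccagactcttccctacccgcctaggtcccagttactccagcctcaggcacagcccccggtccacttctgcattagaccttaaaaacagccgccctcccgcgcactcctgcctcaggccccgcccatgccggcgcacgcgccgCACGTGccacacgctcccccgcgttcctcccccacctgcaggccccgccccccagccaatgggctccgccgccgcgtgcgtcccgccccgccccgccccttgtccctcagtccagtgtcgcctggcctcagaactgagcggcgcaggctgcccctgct
Pgk1, chrX:106186850-106187149, strand +: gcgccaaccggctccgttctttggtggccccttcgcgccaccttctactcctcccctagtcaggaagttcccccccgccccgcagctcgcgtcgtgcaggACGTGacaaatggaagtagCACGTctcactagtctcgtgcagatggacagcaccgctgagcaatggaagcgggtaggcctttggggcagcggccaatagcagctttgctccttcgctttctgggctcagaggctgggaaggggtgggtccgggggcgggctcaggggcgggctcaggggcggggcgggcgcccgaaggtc
Slc16a3, chr11:120948817-120949116, strand +: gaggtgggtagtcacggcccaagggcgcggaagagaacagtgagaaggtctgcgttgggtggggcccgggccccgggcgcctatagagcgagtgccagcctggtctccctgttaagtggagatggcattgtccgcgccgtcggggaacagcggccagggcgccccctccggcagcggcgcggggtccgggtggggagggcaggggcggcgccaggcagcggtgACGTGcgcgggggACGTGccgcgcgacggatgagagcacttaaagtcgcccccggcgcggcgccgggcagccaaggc
Ldhb, chr6:142507908-142508207, strand -: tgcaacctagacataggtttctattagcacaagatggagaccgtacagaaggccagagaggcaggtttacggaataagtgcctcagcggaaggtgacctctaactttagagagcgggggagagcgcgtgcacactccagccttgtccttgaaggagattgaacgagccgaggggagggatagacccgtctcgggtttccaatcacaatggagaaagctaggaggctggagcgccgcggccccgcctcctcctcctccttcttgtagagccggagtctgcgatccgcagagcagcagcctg
Adm, chr7:110627407-110627706, strand +: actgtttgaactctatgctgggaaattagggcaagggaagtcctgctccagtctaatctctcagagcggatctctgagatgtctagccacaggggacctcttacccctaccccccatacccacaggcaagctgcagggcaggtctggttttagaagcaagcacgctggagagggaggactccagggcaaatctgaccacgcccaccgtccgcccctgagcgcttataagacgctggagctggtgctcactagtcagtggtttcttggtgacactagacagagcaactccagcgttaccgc
Pfkfb3, chr2:11502041-11502340, strand -: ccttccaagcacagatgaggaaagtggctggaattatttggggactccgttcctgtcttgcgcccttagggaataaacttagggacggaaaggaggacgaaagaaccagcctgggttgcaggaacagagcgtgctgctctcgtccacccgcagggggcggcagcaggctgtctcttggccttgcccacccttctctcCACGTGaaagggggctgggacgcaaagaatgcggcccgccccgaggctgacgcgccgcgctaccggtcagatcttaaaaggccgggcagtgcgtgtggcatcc

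The Ldha window held 5 matches of ACGTG counted on both strands, of which 4 came from 2 copies of the palindrome CACGTG. The Bnip3 match was likewise a single CACGTG, read once on each strand. The Pgk1 and Slc16a3 windows each held 2 separate matches. The Adm window held no ACGTG but 2 matches of GCGTG, and the Ldhb window none and 1. Of the 2 Pfkfb3 windows the one shown held 2 matches of each, and the other held 1 ACGTG. On either strand ACGTG occurred in 55.6% of the 45 windows of these genes and in 19.6% of all 32851 windows of this length. GCGTG occurred in 60.0% and 32.4%, and CACGTG, which contains ACGTG, in 13.3% and 7.15%. The windows of these genes had a median GC content of 63.3% against 52.7% for all windows, and the part of GC content in these shares was not tested. A match is a description of letters and not of binding.

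Of the glucose and lactate transporters, Slc16a3 had the widest range over cell types. Slc16a3, which encodes the lactate exporter MCT4, was at 692 CPM (593 to 804) with LFD and 744 CPM (531 to 1013) with HFD in neutrophil-like cells. Macrophage-like cells were next with 140 CPM (125 to 156) and 123 CPM (110 to 136), and plasma cell-like cells were lowest in LFD with 0 UMIs. Slc16a1, which encodes the transporter MCT1, was high in other cells, with 70.8 CPM (68.1 to 73.6) in LFD keratin-low Wt1-positive cells and 0 UMIs in LFD dendritic cell-like and HFD neutrophil-like cells. The HFD neutrophil-like cells held only 53779 UMIs in all, so 0 UMIs there is a weak limit on the level. Of the UMIs of both lactate transporters, Slc16a3 took 98.3% (95.1 to 99.6%) in LFD neutrophil-like and 89.7% (86.1 to 92.7%) in LFD macrophage-like cells. The same share was 73.2% (57.1 to 85.8%) in LFD ILC2-like cells and 17.2% (15.9 to 18.6%) in LFD keratin-low Wt1-positive cells.

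Both glucose transporters were highest in neutrophil-like cells. Slc2a1, encoding GLUT1, was at 128 CPM (87.6 to 181) with LFD and 167 CPM (76.5 to 318) with HFD in neutrophil-like cells, against 43.5 CPM (37.1 to 50.7) in LFD B-like cells, the next type. Slc2a3, encoding GLUT3, had 88.0 CPM (55.2 to 133) and 55.8 CPM (11.5 to 163) there, the second value resting on 3 UMIs and overlapping that of T-like cells. The neutrophil-like cells were few (165 LFD, 51 HFD) and shallow, with a median of 1241 and 1008 UMIs. Across the 34 genes, 8 were highest in neutrophil-like cells in both libraries, and for 3 of them the interval of the next type did not overlap in either library. The share of all genes highest in this shallow type is not given here, so these counts cannot be read as particular to the 34 genes.

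**Figure D1:**
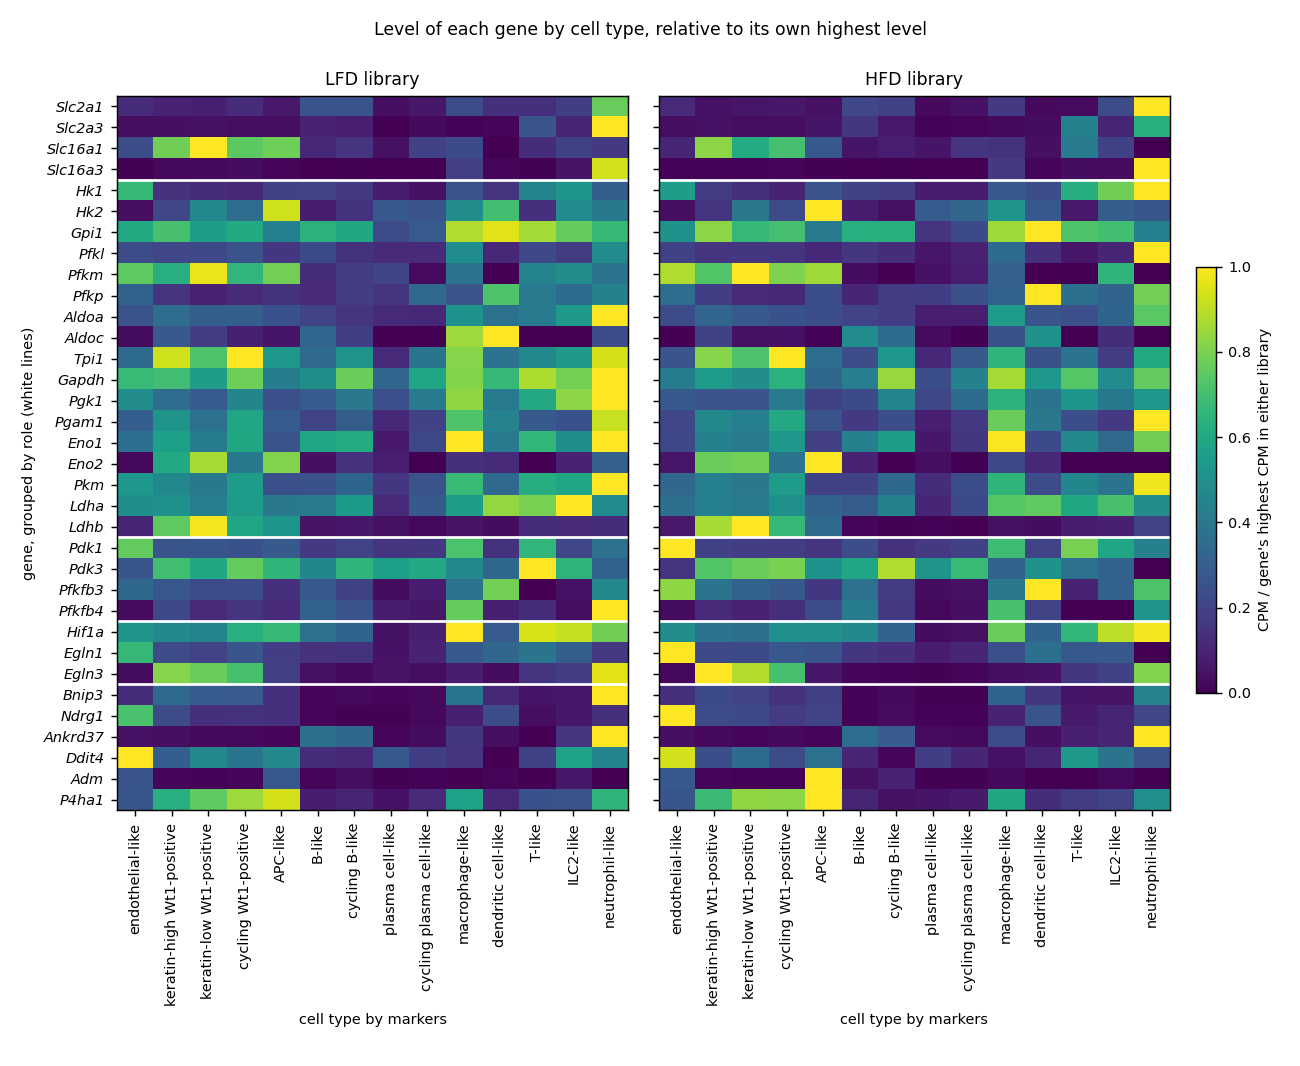
Level of each of the 34 genes (rows, grouped by role) in 14 cell types (columns) in the LFD and HFD libraries, as CPM divided by the highest CPM that gene had in either library. Bright cells are near the gene's own highest level, and Slc16a3 stands at 692 and 744 CPM in neutrophil-like cells with macrophage-like cells next at 140 and 123 CPM.

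The first enzyme of glycolysis, hexokinase, was supplied by different genes in different cells. In endothelial-like cells Hk1 was at 62.2 CPM (54.4 to 70.7) with LFD and 52.2 CPM (43.6 to 61.9) with HFD, and Hk2 at 2.69 (1.29 to 4.95) and 2.79 (1.12 to 5.74), its lowest level of any type in both libraries. Hk1 took 95.9% (92.5 to 98.0%) of the UMIs of both hexokinase genes with LFD and 94.9% (89.8 to 97.9%) with HFD. In APC-like cells, where Hk2 was at its highest with 64.4 CPM (53.9 to 76.2, overlapping dendritic cell-like cells) and 69.4 CPM (62.8 to 76.5), Hk1 took 22.1% (16.1 to 29.0%) and 25.6% (22.0 to 29.5%). The share of Hk1 differed between diets beyond counting error in keratin-high Wt1-positive cells, with 47.5% (42.8 to 52.3%) in LFD and 60.9% (57.2 to 64.6%) in HFD.

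Further down the pathway, Pfkp, a phosphofructokinase, took 90.9% (84.3 to 95.4%) of the UMIs of Pfkl, Pfkm and Pfkp in LFD dendritic cell-like cells and 33.5% (31.6 to 35.5%) in LFD keratin-low Wt1-positive cells. In the latter cells the HFD share was 45.6% (42.9 to 48.3%). Pfkm, the muscle form, was at or below 10.4 CPM in every type and library. Aldoc, an aldolase, took at most 3.94% (1.98 to 6.94%) of the UMIs of Aldoa and Aldoc, in LFD dendritic cell-like cells. Eno2, the neuronal enolase, reached at most 13.1 CPM, in HFD APC-like cells.

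Of the lactate dehydrogenase genes, Ldha had more UMIs than Ldhb in the cells given here, and the share of Ldhb was larger in Wt1-positive and APC-like cells than in endothelial-like and B-like cells. Ldhb, whose product favours the use of lactate, was at 182 CPM (178 to 187) with LFD and 185 CPM (180 to 191) with HFD in keratin-low Wt1-positive cells. Keratin-high cells had 139 CPM (133 to 145) and 161 CPM (156 to 166), whereas macrophage-like cells had 9.75 (6.11 to 14.8) and 8.51 (5.45 to 12.7). Cycling Wt1-positive and APC-like cells had 109 CPM (104 to 114) and 97.5 CPM (84.6 to 112) with LFD. Ldhb took 32.8% (32.2 to 33.5%) of the UMIs of Ldha and Ldhb in LFD keratin-low cells, 21.8% (19.2 to 24.6%) in LFD APC-like and 18.4% (17.6 to 19.2%) in LFD cycling Wt1-positive cells, 4.26% (3.35 to 5.33%) in LFD endothelial-like and 2.68% (1.90 to 3.68%) in LFD B-like cells. Ldha itself was highest in ILC2-like cells in LFD, with 874 CPM (810 to 943), and in dendritic cell-like cells in HFD, with 659 CPM (599 to 723), where macrophage-like cells at 645 CPM (615 to 675) did not differ beyond counting error.

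**Figure D2:**
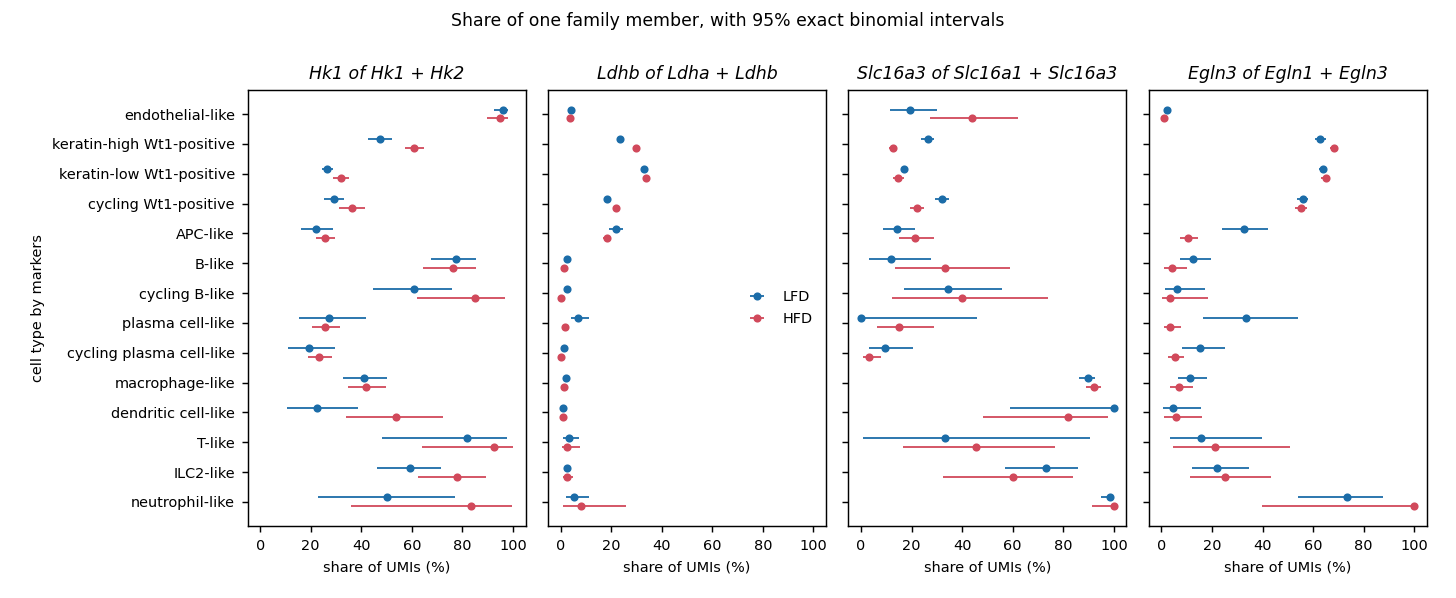
Share of UMIs (percent, x axis) taken by Hk1, Ldhb, Slc16a3 and Egln3 within their pair of genes, for 14 cell types (y axis) in the LFD (blue) and HFD (red) libraries, with 95% exact binomial intervals. Hk1 takes 95.9% in LFD endothelial-like and 22.1% in LFD APC-like cells, and Slc16a3 89.7% in LFD macrophage-like cells.

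The later enzymes Eno1 and Pkm had their lowest CPM in plasma cell-like cells of both libraries. Eno1, an enolase, was at 30.6 CPM with LFD and 26.8 CPM with HFD in plasma cell-like cells, whereas macrophage-like cells had 427 and 424 CPM. Pkm, encoding pyruvate kinase, was at 172 and 141 CPM there, whereas neutrophil-like cells had 1085 and 1060 CPM. In plasma cell-like cells immunoglobulin genes took 35.1% of LFD and 41.2% of HFD UMIs, which lowers the CPM of every other gene. Without these genes in the total Eno1 was still lowest there (47.1 and 45.6 CPM), but Pkm was at 266 and 239 CPM against 264 and 211 CPM in APC-like cells, which were then the lowest. Plasma cell-like or cycling plasma cell-like cells were lowest for 17 genes in LFD and 19 in HFD, and for 14 and 12 of the 34 when immunoglobulin genes were left out of the total. The share of all genes lowest in these types is not given here. Eno1 may share reads with the near-identical Eno1b, and Gapdh with its processed pseudogenes.

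The 5 enzymes Aldoa, Gapdh, Pgam1, Pkm and Ldha had at least 20 UMIs in all types and both libraries. Across the 14 types the Pearson correlation of log2(CPM + 1) between pairs of them ranged from 0.51 to 0.90 in LFD and from 0.63 to 0.83 in HFD. Hif1a correlated with these enzymes at 0.66 to 0.79 (LFD) and 0.59 to 0.88 (HFD), and Ldhb at 0.04 to 0.36 and 0.11 to 0.57. Without immunoglobulin in the total, the ranges for the enzyme pairs were 0.30 to 0.83 and 0.37 to 0.77, those for Hif1a 0.36 to 0.69 and 0.22 to 0.79, and those for Ldhb -0.23 to 0.26 and -0.17 to 0.50. The 14 points of a library share that library and its depth, so these values are descriptions.

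Among the kinases, Pfkfb3, which makes the activator of phosphofructokinase, was highest in dendritic cell-like cells with 40.5 CPM (26.5 to 59.4) with LFD and 51.4 CPM (35.8 to 71.4) with HFD, overlapping neutrophil-like cells in LFD (24.0 CPM) and endothelial-like cells in HFD (42.6 CPM). Pfkfb4, its relative, was at 27.5 and 25.5 CPM in macrophage-like cells and at 1.08 CPM in LFD endothelial-like cells. Neutrophil-like cells had 36.0 CPM of Pfkfb4 in LFD and 18.6 CPM in HFD, both overlapping macrophage-like cells. Pdk1, an inhibitor of pyruvate dehydrogenase, was highest in endothelial-like cells with 32.3 CPM with LFD and 42.6 CPM with HFD, where macrophage-like and T-like cells in turn did not differ from it beyond counting error. Pdk3, another such kinase, was highest in T-like cells in LFD (51.3 CPM) and in cycling B-like cells in HFD (45.1 CPM), again with overlapping intervals.

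The oxygen sensors also differed between cells. Hif1a ranged from 15.8 CPM (10.6 to 22.7) in LFD plasma cell-like cells to 358 CPM (334 to 383) in LFD macrophage-like cells, and in HFD from 12.5 (10.3 to 14.9) to 353 (213 to 552) in neutrophil-like cells, with the next types, T-like in LFD and ILC2-like in HFD, overlapping. Egln1, the main HIF1A prolyl hydroxylase, was highest in endothelial-like cells with 129 CPM (118 to 141) with LFD and 194 CPM (177 to 212) with HFD. In LFD the interval of T-like cells overlapped it. Egln3, a hydroxylase that HIF itself induces, had 75.0 CPM (70.8 to 79.4) and 91.8 CPM (88.2 to 95.5) in keratin-high Wt1-positive cells. Neutrophil-like cells had 88.0 CPM of it in LFD, overlapping keratin-high cells, and 74.4 CPM in HFD. In endothelial-like cells Egln3 was at 2.96 (1.48 to 5.30) and 1.99 (0.646 to 4.65). Egln3 took 62.9% (60.7 to 65.1%) of the UMIs of this pair in LFD keratin-high cells and 2.24% (1.13 to 3.98%) in LFD endothelial-like cells.

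The other HIF target genes had no single site of high expression. Ndrg1, a gene induced by stress and hypoxia, was at 186 CPM (173 to 201) with LFD and 261 CPM (241 to 282) with HFD in endothelial-like cells, above all other types. Ddit4, an inhibitor of mTORC1, was also highest there, with 71.3 CPM (63.0 to 80.4) and 66.5 CPM (56.8 to 77.4), the latter overlapping T-like cells at 38.7 CPM. Adm, encoding the vasodilator adrenomedullin, had its highest levels in APC-like and endothelial-like cells, with 0 UMIs in neutrophil-like cells of both libraries. These neutrophil-like cells held only 249866 LFD and 53779 HFD UMIs in all. Ankrd37, a small HIF target, was highest in neutrophil-like cells, with 112 CPM (74.5 to 162) for LFD and 112 CPM (40.9 to 243, from 6 UMIs) for HFD. B-like cells were next, overlapping in HFD, at 41.2 (34.9 to 48.2) and 40.4 (33.5 to 48.2), and keratin-low Wt1-positive cells had 2.70 (2.20 to 3.29) and 1.37 (0.915 to 1.96). P4ha1, a collagen prolyl hydroxylase subunit, was highest in APC-like cells (104 and 111 CPM), overlapping cycling Wt1-positive cells in LFD. Bnip3, a mitophagy receptor, was highest in neutrophil-like cells, with 84.0 CPM for LFD and 37.2 CPM for HFD. Macrophage-like cells were next for Bnip3 at 32.8 and 27.0 CPM, overlapping in HFD, and B-like cells had 1.59 and 0.667 CPM.

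**Figure D3:**
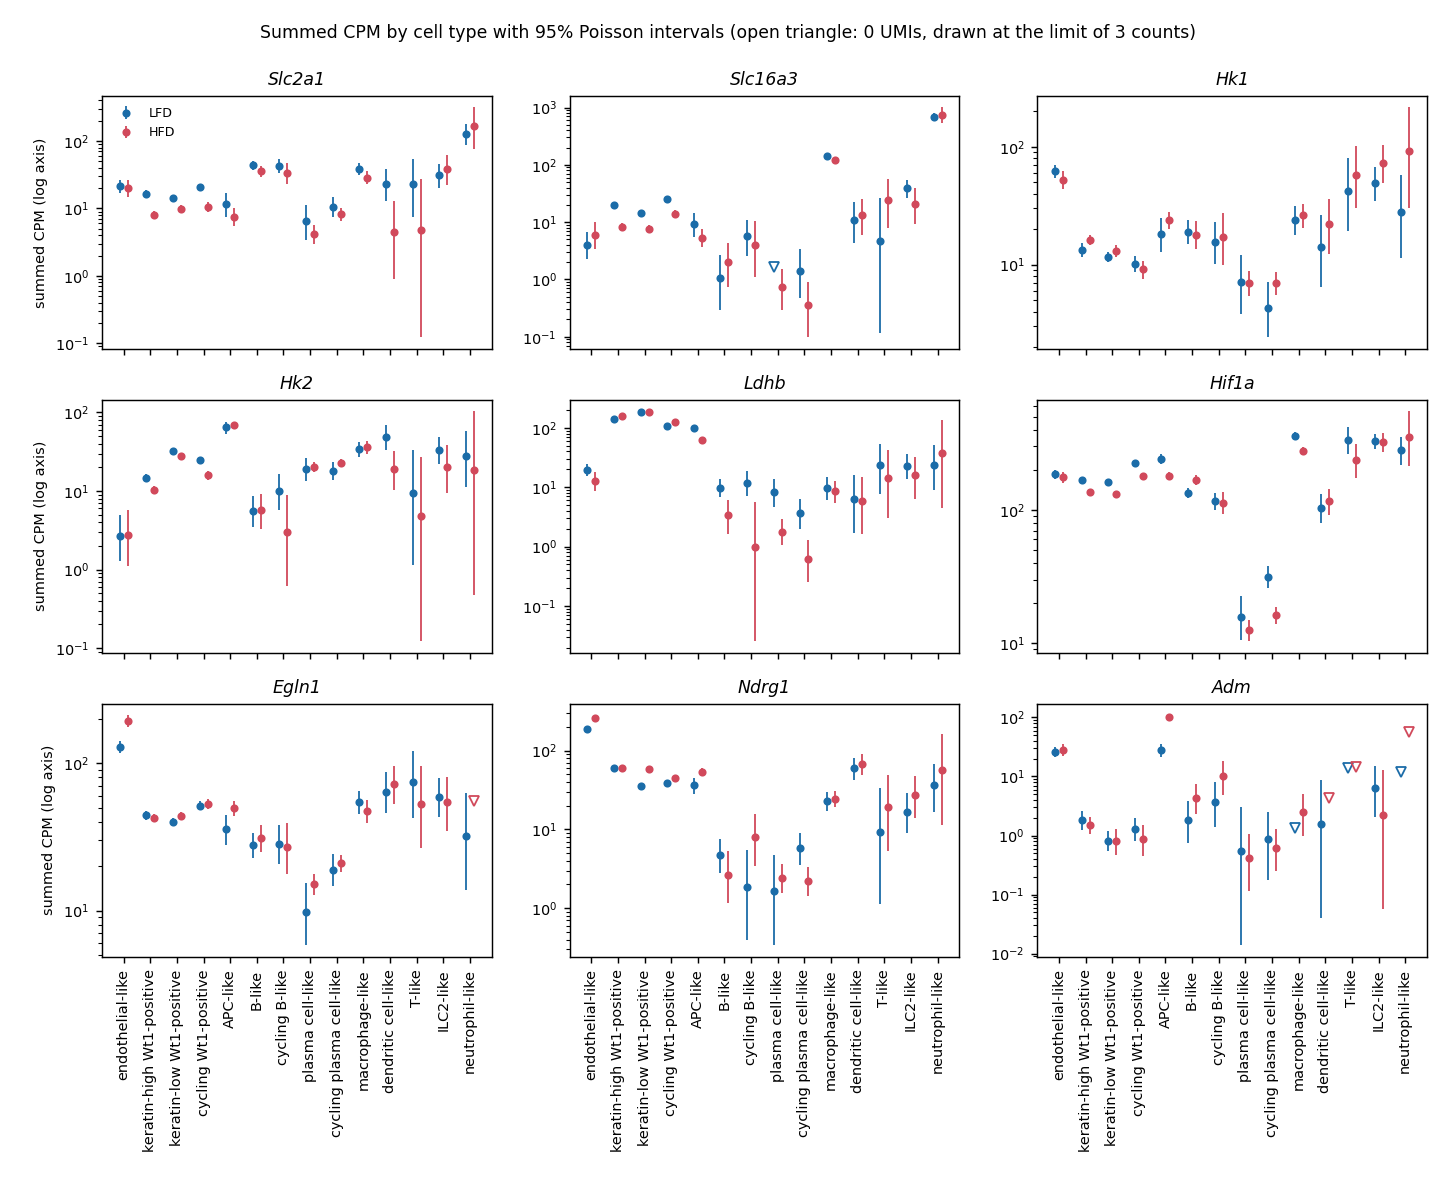
Summed CPM (log axis) of 9 genes in 14 cell types (x axis) in the LFD (blue) and HFD (red) libraries, with 95% Poisson intervals, open triangles standing for 0 UMIs at the level 3 counts would give. Ndrg1 is highest in endothelial-like cells of both libraries, as is Egln1, whose interval overlaps that of T-like cells in LFD, and Adm in HFD APC-like cells stands at 101 CPM against 27.9 CPM in LFD.

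Between diets, lower values in HFD outnumbered higher ones. Of 320 pairs of a gene and a cell type with enough UMIs, 44 were past the fold with the lower value in HFD (13.8%) and 6 with the higher value in HFD (1.88%). Over all genes in the same types the rule called 5.79% of pairs lower and 7.38% higher. The pairs of these genes had a median of 453 UMIs and those of all genes 198, and the part of depth in the shares was not tested. Of the 34 genes 30 were past the fold in at least 1 type, and Hk1, Pfkm, Eno2 and Ldha in none. Over all genes measured in any type 53.0% were. Of the 18 measured in all 11 types, 16 were (88.9%), against 52.1% of all genes so measured. Values just inside the fold were Ddit4 (0.666) and Gpi1 (0.663) in plasma cell-like cells and Egln1 in endothelial-like cells (1.51). Just outside it were Aldoa in plasma cell-like cells (0.669), and Ndrg1 in APC-like and Hk1 in ILC2-like cells (both 1.49).

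**Figure D4:**
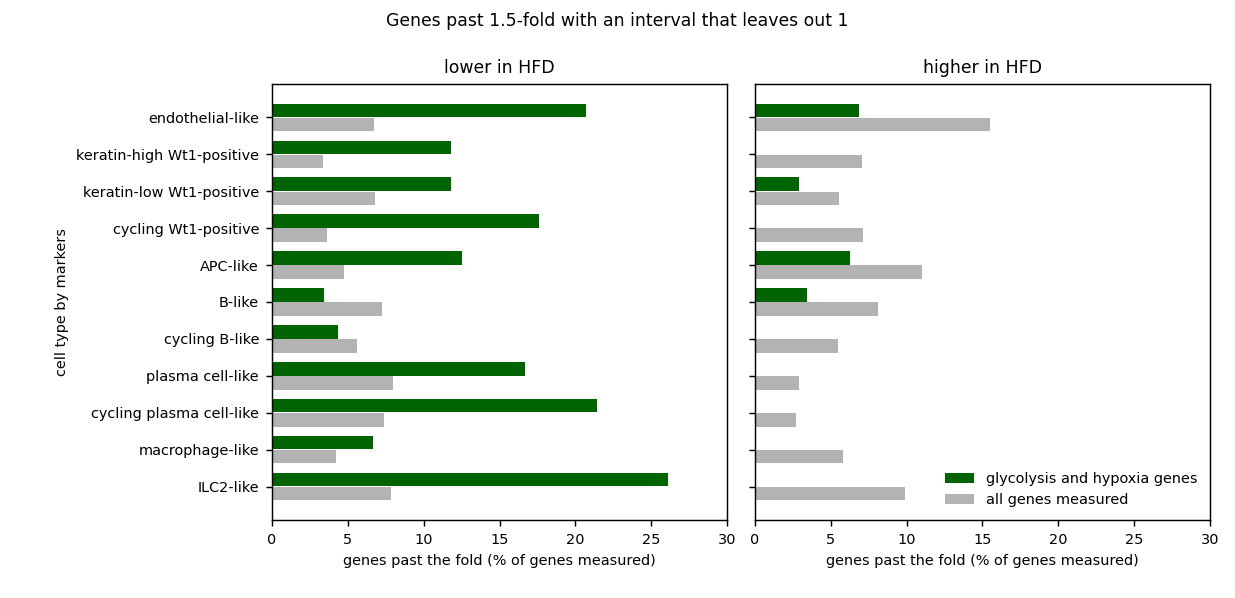
Percent of the genes measured in each of 11 cell types (y axis) that were past 1.5-fold with an interval leaving out 1, lower (left) or higher (right) in HFD, for the glycolysis and hypoxia genes (green) and for all genes measured (grey). The green bar is the longer one for lower values in 9 of the 11 types, and the grey bar is the longer one for higher values in all 11.

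In endothelial-like cells 4 of the 14 glycolytic enzymes measured were lower in HFD by the fold. Of 29 genes measured 6 were lower (20.7%, against 6.75% of all genes in these cells) and 2 were higher (6.90%, against 15.5%). Gapdh was at 1177 CPM with LFD and 733 CPM with HFD, a ratio of 0.623 (0.589 to 0.658). Pgk1, which encodes the next enzyme, was at 256 and 149 CPM with a ratio of 0.582 (0.515 to 0.656). Eno1 (0.591, 0.505 to 0.689) and Pkm (0.619, 0.572 to 0.669) were lower by a similar size, and 12 of 14 glycolytic enzymes had a ratio under 1. Pgam1 (0.708), Ldha (0.745) and Tpi1 (0.747) were among those that did not reach the fold. The median ratio was 0.746 for these enzymes and 1.10 for all genes in these cells.

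The other endothelial differences lay in transport and regulation. Slc16a1 was at 16.7 CPM with LFD and 7.56 CPM with HFD (ratio 0.453, 0.256 to 0.768), and Pdk3 at 13.7 and 7.96 CPM (0.580, 0.328 to 0.990). Pfkfb3, known as a driver of endothelial glycolysis in vessel sprouting, went against the enzymes with 17.2 CPM with LFD and 42.6 CPM with HFD (2.47, 1.80 to 3.43). Egln1 was at 129 and 194 CPM (1.51, 1.33 to 1.71), a ratio that was 1.29 to 1.56 under other choices and lost the call in 4 of 9. Among the lower genes Slc16a1 lost it in 3 of 9 (0.649 to 0.704) and Pdk3 in 2 of 8 (0.608 and 0.782), in each case with an interval that held 1, and Pkm lost it with cells typed by cluster (0.688). HFD endothelial-like cells had a lower median depth (3016 against 4120 UMIs), more of the dissociation and stress genes (7047 against 4309 CPM) and more haemoglobin-group transcripts (1409 against 790 CPM). Their summed mural markers were at 265 against 89.6 CPM and their adipocyte markers at 27.1 against 124 CPM, and the part of these in the ratios was not tested.

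ILC2-like cells, 128 in LFD and 106 in HFD, had the greatest share of lower genes. Of 23 genes measured 6 were past the fold with the lower value in HFD (26.1%, against 7.86% of all genes), and none was higher (against 9.91%). Tpi1, encoding triosephosphate isomerase, was at 199 CPM (169 to 233) with LFD and 65.9 CPM (44.1 to 94.6) with HFD, a ratio of 0.330 (0.214 to 0.494). Pgk1 was at 433 and 211 CPM (0.487, 0.383 to 0.615). The remaining genes were Aldoa (0.598), Gapdh (0.611), Pkm (0.650) and Pgam1 (0.661), so all 6 were enzymes of the pathway. Pkm (0.681) and Pgam1 (0.696) lost the call with the mean over cells of each cell's CPM. Of the 14 enzymes measured, 13 had a ratio under 1, with a median of 0.655 against 1.01 for all genes. Hif1a in the same cells was at 327 CPM (288 to 369) and 322 CPM (272 to 380). Here too median depth was lower in HFD (3790 against 4658 UMIs) and the stress genes were higher (5643 against 4433 CPM). The summed APC markers were at 795 against 1778 CPM, and their part was not tested.

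In the Wt1-positive cells the lower genes were mostly transporters and HIF targets, and 3 of the 14 lower values belonged to glycolytic enzymes. In keratin-high cells 4 of 34 genes were lower in HFD (11.8%, against 3.39% of all genes) and none was higher (against 7.04%). In keratin-low cells 4 were lower (11.8%, against 6.81%) and 1 was higher (2.94%, against 5.58%). In cycling cells 6 were lower (17.6%, against 3.67%) and none was higher (against 7.11%). The median log2 ratio of all genes lay above 0 in these types, by 0.13 in keratin-high, 0.08 in keratin-low and 0.12 in cycling cells, and it was 0.14 in endothelial-like cells. Other values differed between the libraries in these types too. Median depth went from 13883 UMIs in LFD to 16917 in HFD in keratin-high, from 11742 to 17047 in keratin-low and from 17205 to 20639 in cycling cells. The summed Wt1-lineage markers were at 1501 and 2057, 895 and 1119, and 1033 and 1567 CPM in the same order, and adipocyte markers at 9.66 and 6.54, 25.8 and 8.24, and 16.7 and 6.22 CPM. Haemoglobin-group transcripts in keratin-low cells were at 1.39 and 34.3 CPM, and the part of these values in the ratios was not tested.

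Slc16a3 was lower in HFD in the 3 Wt1-positive types. It was at 19.9 CPM with LFD and 8.36 CPM with HFD in keratin-high cells (ratio 0.419, 0.351 to 0.499), at 14.7 and 7.59 CPM in keratin-low cells (0.516, 0.430 to 0.617) and at 24.9 and 14.1 CPM in cycling cells (0.567, 0.475 to 0.674). Slc2a1 was lower in keratin-high cells (16.3 and 8.13 CPM, ratio 0.498, 0.413 to 0.598) and in cycling cells (21.0 and 10.6 CPM, 0.502, 0.411 to 0.612). Its ratio was under 1 in 10 of 11 types.

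Bnip3 was at 29.0 and 18.9 CPM in keratin-high cells (0.650, 0.572 to 0.740) and at 24.0 and 12.1 CPM in cycling cells (0.503, 0.417 to 0.605). The keratin-high ratio lost the call in 3 of 8 other choices (0.679 to 0.715). The cycling cells also had less Hk2 (0.646), Pfkl (0.580) and Ddit4 (0.588), and the keratin-high cells less Pfkfb4 (0.575). Hk2 lost the call in 2 of 8 other choices (0.668 and 0.693) and Pfkfb4 in 1 (0.670). Keratin-low cells came largely from different clusters in the 2 libraries, since clusters 0, 6, 12 and 17 held 1197, 557, 1051 and 943 LFD but 103, 43, 18 and 49 HFD cells, and cluster 2 held 193 and 666. In these cells Slc16a1 was lower (70.8 and 43.6 CPM, 0.616, 0.571 to 0.664), as were Aldoc (3.09 and 0.801 CPM, 0.260, 0.146 to 0.434) and Ankrd37 (0.505, 0.322 to 0.771). Ndrg1 went the other way in keratin-low cells, with 35.6 CPM with LFD and 57.9 CPM with HFD (1.63, with an interval that left out 1). When cells were typed by cluster this ratio was 1.38, and Ankrd37 lost the call with the stricter cell filter through its interval alone (0.576, 0.236 to 1.28).

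APC-like cells, 175 in LFD and 521 in HFD, had the highest ratio among the 34 genes. Adm was at 27.9 CPM (21.2 to 36.0) with LFD and 101 CPM (93.4 to 110) with HFD, a ratio of 3.64 (2.78 to 4.85). The share of cells with an Adm UMI was 18.9% (13.4 to 25.5%) with LFD and 38.4% (34.2 to 42.7%) with HFD, at a median depth of 10955 and 10769 UMIs, and no cell held more than 2.88% of the HFD count. In macrophage-like cells, at a median of 4490 and 6100 UMIs, Adm was seen in 0 of 491 LFD cells and in 0.670% of HFD cells. Endothelial-like cells, the next highest type for Adm, had 26.4 and 28.3 CPM, which was not past the fold, and the difference between these types was not tested.

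Pfkp was also higher in APC-like cells in HFD (34.6 and 57.0 CPM, 1.65, 1.27 to 2.16), which made 2 of 32 genes higher (6.25%, against 11.0% of all genes). Another 4 were lower (12.5%, against 4.73%). Slc16a1 was at 55.2 and 19.6 CPM (0.355, 0.271 to 0.463), Egln3 at 17.3 and 5.84 CPM (0.338, 0.205 to 0.555), Ldhb at 97.5 and 62.9 CPM (0.645, 0.542 to 0.769) and Pdk1 at 12.0 and 6.53 CPM (0.544, 0.320 to 0.940). Slc16a1, Egln3 and Ldhb were all high in Wt1-positive cells. The summed Wt1-lineage markers in APC-like cells were 461 CPM with LFD and 465 CPM with HFD. Their adipocyte markers were at 36.5 and 15.1 CPM, and the part of both lists was not tested. With cells typed by cluster Egln3 (0.699), Ldhb (0.718) and Pdk1 (0.760) lost the call. With the highest doublet scores removed Pdk1 (0.629, 0.348 to 1.18) lost it through its interval alone.

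**Figure D5:**
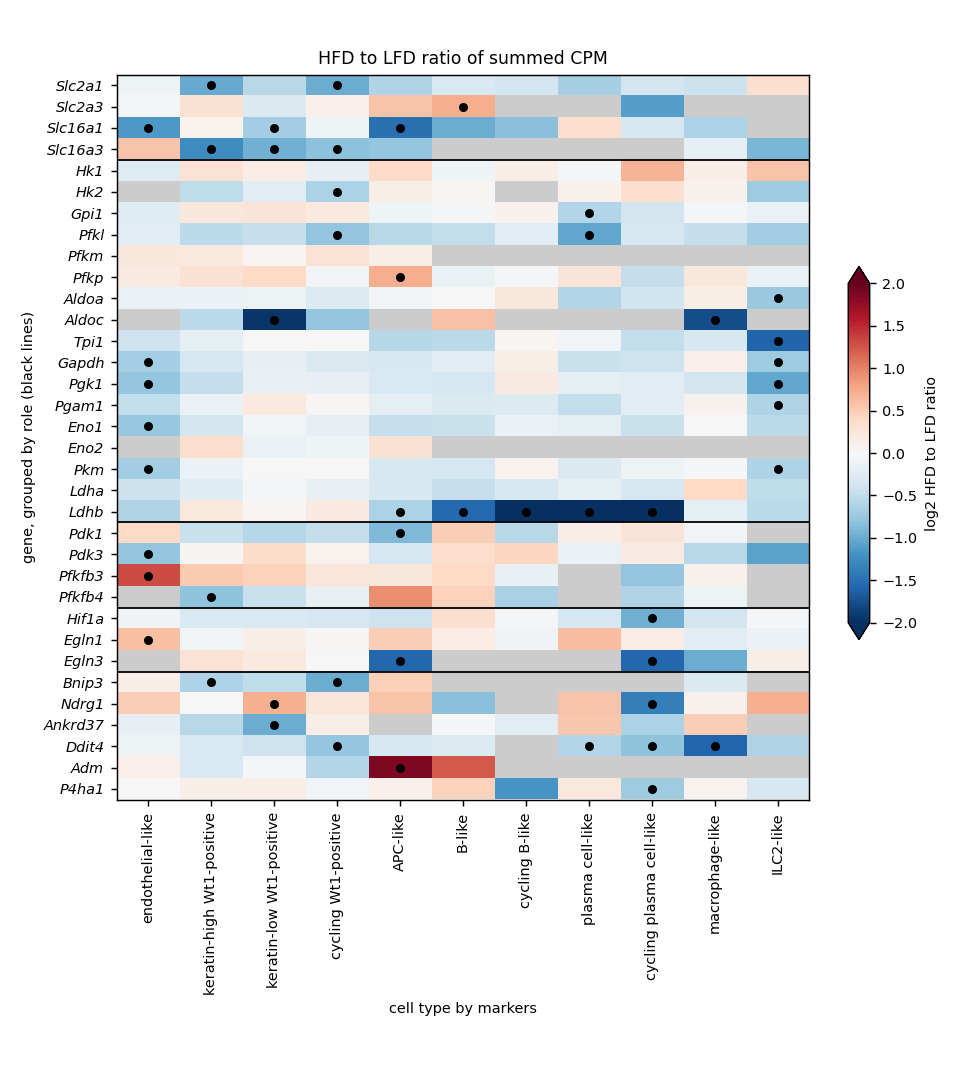
Log2 ratio of HFD to LFD CPM for the 34 genes (rows, grouped by role) in 11 cell types (columns), blue for lower and red for higher in HFD, grey where fewer than 20 UMIs were counted. The 50 dots mark ratios past 1.5-fold with an interval leaving out 1, of which 44 are lower and 6 higher in HFD.

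In the B lineage the most frequent difference was Ldhb, at low counts. It was at 9.82 CPM with LFD and 3.34 CPM with HFD in B-like cells (37 and 10 UMIs, ratio 0.339, 0.151 to 0.696), the only one of 29 genes that was lower there (3.45%, against 7.23% of all genes). Slc2a3 was the only one that was higher (3.45%, against 8.12%), with 8.50 and 14.0 CPM (1.65, 1.02 to 2.70). In cycling B-like cells Ldhb was the only one of 23 past the fold (4.35%, against 5.61% lower and 5.50% higher among all genes), with 19 UMIs in LFD and 1 in HFD (0.0840, 0.00202 to 0.528). Under other choices the B-like ratio of Ldhb lay between 0.263 and 0.819 and lost the call in 3 of 7, and that of Slc2a3 lay between 1.40 and 1.83 and lost it in 4 of 8.

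In plasma cell-like cells 4 of 24 genes were lower in HFD (16.7%, against 8.01% of all genes) and none higher (against 2.93%). Pfkl was at 18.0 and 8.76 CPM (0.486, 0.321 to 0.752), Ldhb at 8.19 and 1.79 CPM (0.219, 0.103 to 0.471), Gpi1 at 80.2 and 53.2 CPM (0.663, 0.551 to 0.802) and Ddit4 at 19.6 and 13.1 CPM (0.666, 0.456 to 0.994). Gpi1 and Ddit4 each kept the call in only 5 of 9 other choices. Both lost it with median-ratio scaling and once immunoglobulin genes were left out of the total (0.732 and 0.736), among others. In cycling plasma cell-like cells 6 of 28 were lower (21.4%, against 7.40%) and none higher (against 2.73%). Hif1a was at 31.6 and 16.2 CPM there (0.514, 0.403 to 0.657), followed by Ndrg1 (0.388, 0.207 to 0.737), Ddit4 (0.574, 0.396 to 0.840), P4ha1 (0.608), Egln3 (0.336) and Ldhb (0.167). Other choices gave 0.514 to 0.852 for Hif1a and 0.608 to 0.961 for P4ha1, which lost the call in 2 of 8 and 4 of 8, as did Ddit4 in 2 of 8 (0.693 and 0.748). Ndrg1 lost it in 2 of 7 (0.496 and 0.540) and Egln3 in 1 of 4 (0.473), through the intervals alone.

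Ldhb and Egln3 were far higher in Wt1-positive and APC-like cells than in these lymphoid cells, where APC markers were lower in HFD as well. The summed 14 APC markers stood at 789 CPM with LFD and 456 CPM with HFD in B-like cells, at 1280 and 301 CPM in cycling B-like cells, at 465 and 184 CPM in plasma cell-like cells, and in their cycling counterparts at 712 and 147 CPM. The summed Wt1-lineage markers stood at 37.2 and 31.4, 39.0 and 18.0, 36.6 and 36.7, and 42.5 and 38.7 CPM in the same cells. Haemoglobin-group transcripts stood at 49.9 and 270.0 CPM in B-like and at 27.6 and 137 CPM in cycling B-like cells. The part of such transcripts in the ratios of the B lineage was not tested.

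Macrophage-like cells had few differences. Of 30 genes 2 were lower in HFD (6.67%, against 4.21% of all genes) and none was higher (against 5.80%). Aldoc was at 14.6 CPM with LFD and 4.26 CPM with HFD (33 and 12 UMIs, 0.291, 0.137 to 0.579), and Ddit4 at 10.6 and 3.55 CPM (24 and 10 UMIs, 0.334, 0.142 to 0.724). With the highest doublet scores removed the Ddit4 ratio was 0.591 (0.232 to 1.46), which lost the call through its interval alone. In these cells the summed Wt1-lineage markers were at 50.5 CPM with LFD and 23.4 CPM with HFD and the APC markers at 1701 and 1209 CPM, and their part was not tested. Ddit4 had a ratio under 1 in all 10 types in which it was measured and was past the fold in 4. Gapdh in macrophage-like cells was at 1416 CPM (1367 to 1466) and 1508 CPM (1463 to 1554).

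Other genes of the same pathways were set beside these, from lists of 29 glycolysis and 31 hypoxia genes. Of 151 glycolysis pairs 10 were higher (6.62%) and 7 lower (4.64%), and of 258 hypoxia pairs 28 were higher (10.9%) and 42 lower (16.3%), against 7.38% and 5.79% over all genes, with median ratios per type of 0.873 to 1.11 and 0.885 to 1.19. Of these genes 10 were past 2-fold in at least 2 types. Pdk4, the PDK kinase that fatty acids induce, was higher in HFD in 6 types, among them cycling Wt1-positive cells with 2.81 and 11.6 CPM (4.15, 2.96 to 5.91) and endothelial-like cells with 9.42 and 20.3 CPM (2.16, 1.37 to 3.42). Epas1, encoding HIF2A, was at 334 and 669 CPM in endothelial-like cells (2.00, 1.86 to 2.16) and lower in the 3 Wt1-positive types (0.472, 0.313 and 0.274) and in ILC2-like cells (0.456). Cxcr4, a chemokine receptor, was higher in 5 types (1.91 to 3.63).

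Bhlhe40, a transcriptional repressor, was higher in 5 types, as in APC-like cells (59.1 and 137 CPM, 2.31, 1.91 to 2.82), and lower in cycling plasma cell-like cells (0.285). Car12, a carbonic anhydrase, was lower in the 3 Wt1-positive types (0.246 to 0.559), and Stc2, a secreted glycoprotein, in keratin-high (0.141) and keratin-low cells (0.498). Lox (lysyl oxidase) and Angptl4 (an inhibitor of lipoprotein lipase), which LFD APC-like cells held at 698 and 350 CPM, were lower in the 4 B-lineage types, where the APC markers above were lower too. Lox was lower in 5 further types as well (endothelial-like, keratin-low and cycling Wt1-positive, macrophage-like and ILC2-like cells, 0.166 to 0.617). Plod2, a collagen lysyl hydroxylase at 337 CPM in LFD APC-like cells, was lower in 3 of these types and in macrophage-like cells (0.0725 to 0.481), and in plasma cell-like cells it had a ratio of 0.542 (0.255 to 1.25). Ldhc, the testis form of lactate dehydrogenase, was lower in keratin-low Wt1-positive cells (0.225, 0.0433 to 0.745) and had 60 UMIs in LFD and 0 in HFD cycling B-like cells.

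Arnt, the shared partner of HIF1A and AHR, was at 11.5 to 35.0 CPM with LFD and 13.2 to 47.4 CPM with HFD over the 11 types compared. It was past the fold in B-like cells only (18.9 and 31.0 CPM, 1.65, 1.20 to 2.27). Ahr was past the fold in APC-like cells (13.5 and 7.04 CPM, 0.524, 0.316 to 0.879) and in cycling B-like cells (27.6 and 44.1 CPM, 1.60, 1.03 to 2.48).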

How the data were processed

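Raw UMI counts, 1 per gene ID and cell barcode, were deposited by the authors, who made them with Cell Ranger 4.0.0 per the file headers, and the submitters' processing notes name mm10 as the build. The other deposited files named genes and barcodes. The gene annotation was not given in the sources used here. Gene positions were looked up in GENCODE (GRCm38). Cells with 500 to 40000 UMIs, at least 100 genes and under 12.5% mitochondrial UMIs were kept, as in the study's methods. A cell was put in a type when it expressed a minimum number of the type's markers and of no other class, apart from related lists. Between B and plasma cell lists, and between T and ILC2 lists, the list with more detected markers was taken. A cell at the APC minimum could be APC-like although it also met the Wt1-lineage minimum. No doublet caller was used in the main values. Counts were summed per type and library, since cells are not replicates, and no test between diets was possible with 1 library each. The ratio and its interval were tested on simulated Poisson counts for the endothelial-like comparison. These counts hold no spread between cells, mice or libraries, so this checked the calculation only. The members, gene lists and markers were chosen with earlier results of these data known. Genes are given in full if past 1.5-fold in at least 3 types or past 2-fold in any, or if their CPM ranged most over types within their role, and other pathway genes if past 2-fold in at least 2 types. A gene of the hypoxia list is not reported here. Alternatives covered scaling, count minimum, fold, cell filter, cell typing, doublets (Scrublet in scanpy 1.11.5) and cycling cells. Versions were numpy 2.4.6, scipy 1.17.1 and pandas 2.3.3.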

Additional observations from a re-analysis of the deposited data

Results flagged for a closer look

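Listed here are genes named above that were past the fold in opposite directions in different cell types, a difference that was not tested. Among the 34 genes this held for Ndrg1 alone, with an HFD to LFD ratio of 1.63 in keratin-low Wt1-positive cells and 0.388 in cycling plasma cell-like cells, the latter resting on 20 LFD and 25 HFD UMIs. Among the other hypoxia genes named, Epas1 had a ratio of 2.00 in endothelial-like cells, against 0.472 in keratin-high, 0.313 in keratin-low and 0.274 in cycling Wt1-positive cells and 0.456 in ILC2-like cells. Bhlhe40 had 1.64 in keratin-high Wt1-positive, 2.31 in APC-like, 2.23 in B-like, 2.23 in cycling B-like and 1.59 in ILC2-like cells, against 0.285 in cycling plasma cell-like cells. Ahr, which is in none of the gene lists, was past the fold lower in APC-like and higher in cycling B-like cells.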

How the results depend on the processing

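No paired analysis was possible because each diet had 1 library, and no library could be left out. None of the 50 ratios past the fold turned direction under the alternatives in which they could be computed, the fold of 2 set apart. Of the 50, 26 stayed past 1.5-fold, with an interval leaving out 1, in all of these alternatives. For Ldhb in cycling B-like and in cycling plasma cell-like cells only 3 alternatives could be computed. With a fold of 2, lower pairs were 5.31% and higher pairs 0.625% of 320, against 3.14% and 2.82% over all genes. Lower genes at this fold were 3.45% (1 of 29) in endothelial-like and 8.70% (2 of 23) in ILC2-like cells. Higher pairs were 3.59% with the stricter cell filter (8.01% over all genes) and 3.26% with the highest Scrublet scores removed (7.53%). In ILC2-like cells lower genes were 46.2% (6 of 13) with a minimum of 50 UMIs and 42.1% (8 of 19) with the highest Scrublet scores removed. The shares of all genes in the same type at these settings and at the fold of 2 are not given here. These shares within a type therefore have no background beside them. With median-ratio scaling 57 pairs were lower (17.8%, against 6.75% over all genes) and 5 higher (1.56%, against 5.75%). Neutrophil-like cells had fewer than 50 cells in a library under the stricter marker rule and the stricter cell filter, and ILC2-like cells fewer than 100, so those values were not computed. For members near 20 UMIs in a type, depth limits the ratio to wide intervals.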
